A study of Mus musculus with 14 samples.

Results

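Collagen chains were examined in the liver RNA of male Apoe-deficient mice, of the strain C57BL/6 and aged 8 weeks per the labels and on a C57BL/6J background per the study's methods, that received a Western diet (control) or the same diet with 10 mg/kg of erythrodiol, a triterpene of the olive. All mice lacked apolipoprotein E, so the comparison of diets was made within this genotype, which is prone to fatty liver. The chains were chosen by name, as all genes whose symbol is Col, a number, the letter a and a number, which gave 42 of the 17552 genes in the deposited table. Each group held 7 libraries, each made from RNA pooled over a few mice, and the gene table gives 1 value per gene and group, the sum of the expected counts of these libraries. For this reason no replicate error and no test exist for any gene here, and the intervals below are at 95% and cover counting error only. The duration of the diets is 8 weeks in the labels and longer in the study's methods. The age in the labels equals this time on the diets, so it is not taken here as the age at which the livers were collected.

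Collagens are proteins of the extracellular matrix in which chains wind around each other into a triple helix, and the helix is built of triplets of residues, each led by a glycine. Fibrillar collagens, such as types I, III and V, assemble into the fibrils of connective tissue, type IV forms the meshwork of basement membranes, and other types attach to fibrils, make beaded filaments or span the cell membrane. In liver, types I and III are known as the main collagens of scar tissue and are made chiefly by stellate cells and portal fibroblasts, while collagen XVIII is also made by hepatocytes. The name-based members were 10 fibrillar chains, 6 basement membrane chains and 26 others. Col2a1, Col9a1 and Col21a1 were not analysed here.

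The repeat that makes these genes collagens was read from the GENCODE M21 coding sequences on GRCm38, which were found for all 42 genes. It is shown in exons of 54 bases, the unit that fibrillar genes repeat, as the first coding exon of that size in each gene that lies in frame and is all triplets led by glycine, 5′ to 3′ on the coding strand, with the glycine codons that lead each triplet in capitals. Types I, III, V and XXVII are fibrillar and type IV belongs to the basement membrane.
Col1a1: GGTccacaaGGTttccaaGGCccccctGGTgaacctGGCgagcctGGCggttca
Col3a1: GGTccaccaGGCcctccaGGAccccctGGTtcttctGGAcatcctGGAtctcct
Col5a2: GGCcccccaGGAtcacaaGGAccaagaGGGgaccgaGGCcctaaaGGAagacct
Col5a3: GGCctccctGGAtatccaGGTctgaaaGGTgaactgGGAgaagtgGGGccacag
Col27a1: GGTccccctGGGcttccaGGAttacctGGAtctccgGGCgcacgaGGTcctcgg
Col4a1: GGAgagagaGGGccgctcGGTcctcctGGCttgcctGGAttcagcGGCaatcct
These lie on GRCm38 at chr11:94939904-94939957 (plus strand, exon 8) for Col1a1, chr1:45325360-45325413 (plus strand, exon 6) for Col3a1 and chr1:45434892-45434945 (minus strand, exon 6) for Col5a2. The exon of Col5a3 is at chr9:20801068-20801121 (minus strand, exon 15), that of Col27a1 at chr4:63231792-63231845 (plus strand, exon 4) and that of Col4a1 at chr8:11245211-11245264 (minus strand, exon 7).

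Type IV chains differ from fibrillar chains in that the repeat is broken many times. Exon 13 of Col4a2, a short exon in frame with such breaks, is shown for this, with every glycine codon in capitals, from chr8:11408052-11408144 of GRCm38 on the plus strand.
Col4a2: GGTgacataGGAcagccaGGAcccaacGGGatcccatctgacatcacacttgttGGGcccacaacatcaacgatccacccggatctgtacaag
The triplets between the fourth and the fifth glycine codon are not led by glycine, nor are those from the fifth to the end of the exon. Over all members, the longest unbroken run of triplets led by a glycine codon had a median of 338 triplets in the 10 fibrillar chains (216 to 344), of 43.5 in the 6 type IV chains (39 to 66) and of 45 in the 26 others (23 to 113). Among internal coding exons that lay at least 90% within such repeats, 59.5% of the 467 fibrillar exons were 54 bases long, against 6.28% of the 191 exons of type IV and 25.4% of the 492 exons of the others. In Col27a1 and Col24a1 the longest run was 217 and 216 triplets, shorter than the 337 to 344 of the 8 other fibrillar chains.

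**Figure D1:**
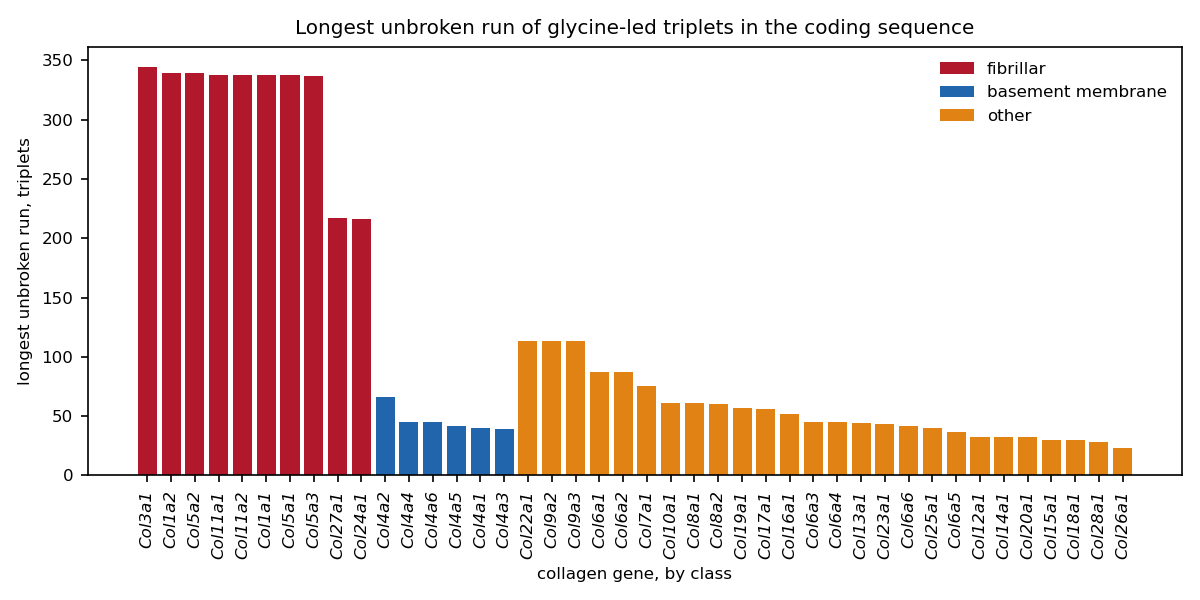
Longest unbroken run of triplets led by a glycine codon (y axis, triplets) in the coding sequence of each of the 42 collagen genes (x axis), coloured by class. The fibrillar chains stand at 216 to 344 triplets and all other chains at 113 or fewer.

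Of the 42 chains, 29 had at least 100 counts in the groups together and are compared below, 6 had 10 to 99 counts and 7 had fewer than 10. Those under 10 counts were Col6a4, Col9a2, Col10a1, Col11a1, Col17a1, Col19a1 and Col22a1, most of them known from cartilage, muscle, skin or nerve. The group sums held 122889032 counts in the control group and 124686047 under erythrodiol, so that a count of 3 is the upper limit that 0 counts would allow in either. Libraries held between 34856340 and 55244294 clean reads in the control and between 47669656 and 48058606 with erythrodiol. By reads mapped to genes, a single control library made up between 9.12% and 17.3% of its group's sum, and a single erythrodiol library between 13.9% and 14.6%. Apoe itself was counted 9403 times in the control and 8293 times with erythrodiol, so reads were assigned to this gene in both groups.

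Levels were compared between genes as counts per kilobase of the deposited length per 1000000 counts of the group. Col18a1, which encodes the basement membrane collagen from which endostatin is cut, was far above all other chains. It had a level of 142 in the control group and 177 under erythrodiol. As a multiplexin it was counted here among the others, because the basement membrane class holds type IV chains only. It made up most of the signal of the multiplexins, which together held 58.5% of the collagen signal per length in the control group and 62.2% under erythrodiol. Next came Col3a1, the chain of type III collagen, at 17.8 and 16.4, Col14a1, a chain that binds to the surface of fibrils, at 16.0 and 16.2, and Col5a3, a chain of type V collagen, at 12.8 and 16.4. Col4a1 had a level of 9.26 and 9.31, Col1a1 of 8.40 and 8.62, Col1a2 of 7.38 and 7.40 and Col4a2 of 5.74 and 5.80. Col27a1, a fibrillar chain best known from cartilage, had 6.65 in the control group and 9.41 under erythrodiol and was number 8 by level in the control group and number 5 under erythrodiol. Fibrillar chains held 23.0% of the collagen signal per length in the control group and 21.3% under erythrodiol, and type IV chains 6.35% and 5.44%. Without Col18a1 the fibrillar share was 54.4% and 55.1%, so that the direction of this change depended on that single gene.

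**Figure D2:**
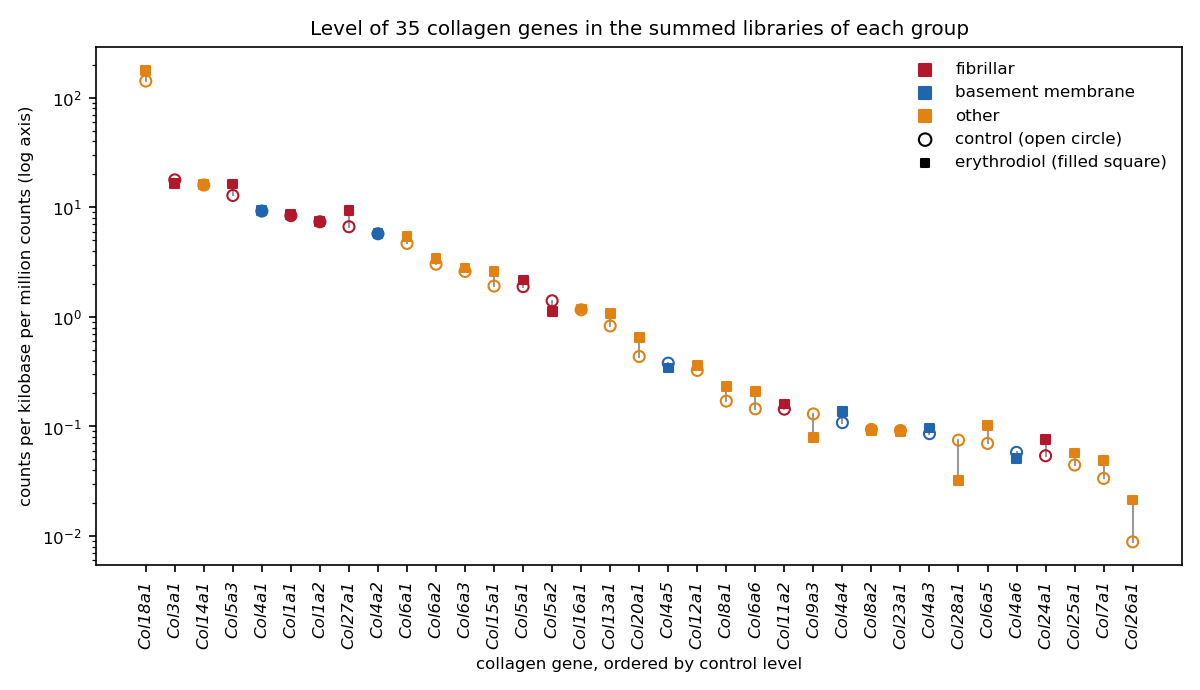
Level of the 35 collagen genes with at least 10 counts, in counts per kilobase per 1000000 counts (log axis), in the summed control libraries (open circles) and the summed erythrodiol libraries (filled squares). Col18a1 stands at 142 and 177, above the next gene, Col3a1, at 17.8 and 16.4.

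In the comparison of diets, no collagen chain with at least 100 counts was 1.5-fold higher or lower with erythrodiol. Among all 13291 genes of that depth, 2.54% were at least 1.5-fold higher and 3.13% at least 1.5-fold lower. At a smaller limit of 0.32 in log2, 10 of the 29 chains were higher, beside 24.3% of all genes, and 1 was lower, Col5a2, beside 8.86% of all genes. The counting interval of the ratio lay above 1 for 13 chains (54.6% of all genes) and below 1 for 2, Col3a1 and Col5a2 (17.4% of all genes). The median log2 ratio of the 29 chains was 0.17, and that of all genes of this depth was 0.16. A log2 ratio above 0 was found for 24 chains, beside 71.2% of all genes. In bulk liver, fewer cells of a type and less RNA per cell cannot be told apart.

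**Figure D3:**
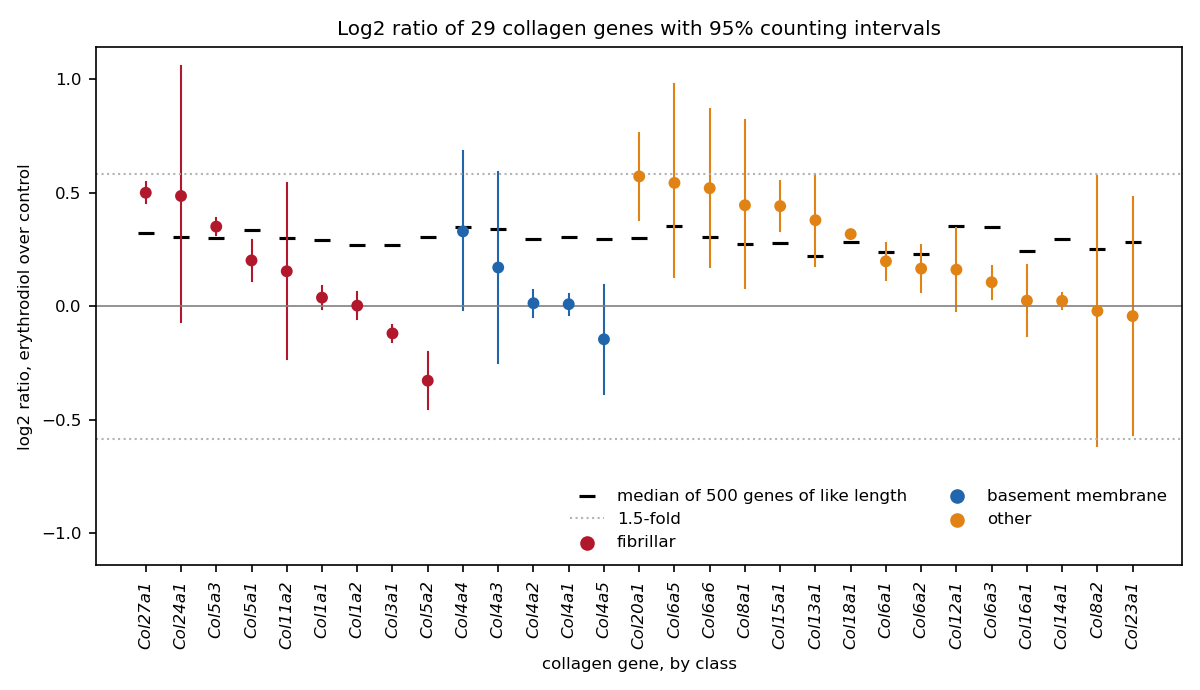
Log2 ratio of erythrodiol to control (y axis) for the 29 collagen genes with at least 100 counts, with 95% counting intervals (vertical lines), grouped by class. Black dashes are the median of 500 genes of like length, and no gene's point passes the dotted lines at 1.5-fold.

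The ratio moved with the length of the gene. In genes other than collagens under 1000 bases the median log2 ratio was -0.27, in those of 2000 to 3000 bases 0.14 and in those of 6000 to 8000 bases 0.31. Collagen genes are long, with a median of 6370 bases over the 29 chains against 2856 over all genes, so each was also set beside the 500 other genes nearest in length. Relative to those, 19 of the 29 chains were lower and 10 higher, with a median difference of -0.15 in log2, beside 50.0% of all genes lower. At least 0.32 in log2 below genes of like length were 4 chains, Col3a1, Col5a2, Col4a5 and Col23a1, or 13.8%, beside 13.5% of all genes, a share near the background. At least 0.32 above them was no chain, beside 6.03% of all genes. A distance of 1.5-fold below genes of like length was reached by 1 chain, Col5a2, beside 3.48% of all genes.

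**Figure D4:**
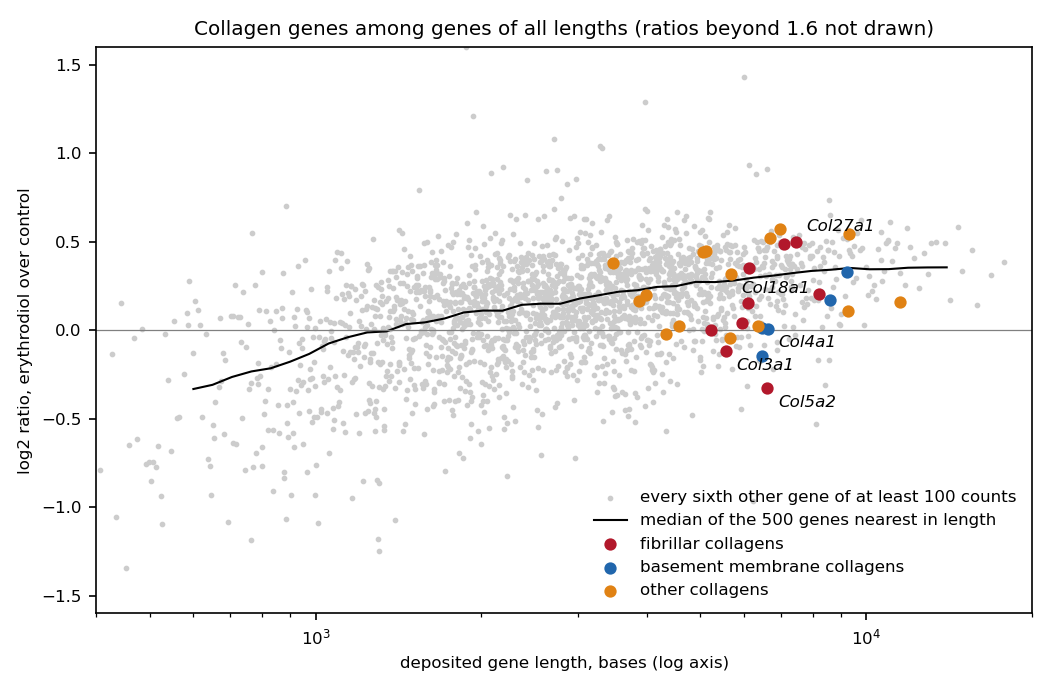
Log2 ratio of erythrodiol to control (y axis) against deposited gene length in bases (x axis, log scale) for the 29 collagen genes, coloured by class, and for every sixth other gene of at least 100 counts (grey). The black line, the median of the 500 genes nearest in length, climbs with length, and 19 of the 29 collagen genes lie below it.

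The chains of types I and III, which build the bulk of fibrils in liver, had ratios near 1 for type I and a lower one for type III. Col1a1 (chromosome 11) had 6138 counts in the control group and 6394 under erythrodiol, a ratio of 1.03 with an interval of 0.991 to 1.06. Its partner Col1a2 (chromosome 6) had 4739 and 4817 counts, a ratio of 1.00 with an interval of 0.962 to 1.04. Col3a1 had 12187 and 11380 counts, a ratio of 0.920 with an interval of 0.897 to 0.944. All of these were below genes of like length, by -0.26, -0.27 and -0.39 in log2, respectively. Per length, Col1a1 stood to Col1a2 as 1.14 to 1 in the control and 1.17 to 1 with erythrodiol, and this proportion changed by 0.04 in log2, with an interval of -0.04 to 0.11.

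Type V collagen, which is known to start fibrils and to limit their width, had chains whose ratios lay on both sides of 1. Col5a3 (chromosome 9) had 9646 counts in the control group and 12483 under erythrodiol, a ratio of 1.28 with an interval of 1.24 to 1.31. Col5a1 (chromosome 2) had 1910 and 2229 counts, a ratio of 1.15 with an interval of 1.08 to 1.22. Col5a2 (chromosome 1) went the other way, with 1141 and 922 counts, a ratio of 0.796 and an interval of 0.729 to 0.869. Relative to genes of like length Col5a3 was at 0.05, Col5a1 at -0.13 and Col5a2 at -0.64 in log2, so that Col5a1 changes side with the scaling. The level of Col5a3 was 9.14 times that of Col5a2 in the control and 14.6 times with erythrodiol, a shift of 0.68 in log2 with an interval of 0.55 to 0.81 into which the scaling of the groups does not enter. For Col5a1 against Col5a2 the proportion went from 1.35 to 1.94, a shift of 0.53 with an interval of 0.38 to 0.68. These pairs of chains, and those below, were chosen after their values were seen.

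Among the other fibrillar chains, Col27a1 had 6103 counts in the control group and 8759 under erythrodiol, a ratio of 1.41 with an interval of 1.37 to 1.46, and lay 0.18 in log2 above genes of like length. Col24a1, which is closest to Col27a1 in its short glycine run, had 47 and 67 counts, a ratio of 1.40 with an interval of 0.953 to 2.09. Col11a2, a cartilage chain, had 108 and 122 counts. Counted together, types V and XXVII shifted against types I and III by 0.41 in log2, with an interval of 0.37 to 0.44, from 18800 against 23064 counts in the control to 24393 against 22591 with erythrodiol. All 10 fibrillar chains summed to 42020 counts in the control group and 47175 under erythrodiol, a ratio of 1.11 with an interval of 1.09 to 1.12, which was 1.18 without Col3a1. The median log2 ratio of the 9 fibrillar chains over 100 counts was 0.15, and -0.15 relative to genes of like length.

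The major chains of basement membrane type IV collagen, Col4a1 and Col4a2, had matching ratios close to 1. Col4a1 had 7548 counts in the control group and 7706 under erythrodiol, a ratio of 1.01 with an interval of 0.975 to 1.04. Col4a2 had 4564 and 4673 counts, a ratio of 1.01 with an interval of 0.969 to 1.05. Per length Col4a1 stood to Col4a2 as 1.61 to 1 in both groups. Both lay below genes of like length, by -0.30 and -0.28 in log2. All 6 chains summed to 12673 and 12957 counts, a ratio of 1.01 with an interval of 0.983 to 1.03.

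Col4a1 and Col4a2 lie head to head on chromosome 8 of GRCm38, Col4a1 from 11198423 to 11312889 on the minus strand and Col4a2 from 11312805 to 11449287 on the plus strand, so that these RefSeq gene spans overlap by 85 bases. A strand setting of the counting is not given in the sources used here, and without it reads within this overlap cannot be assigned to either gene. The start region of Col4a1 is shown because it lies between the pair with matching ratios. The RefSeq promoter table places the start of Col4a1 inside the gene span, at 11312826, from which the overlap with Col4a2 is 22 bases. The stretch runs from 250 bases before to 50 after that start (RefSeq, GRCm38.p6, chr8:11312777-11313076, minus strand, 5′ to 3′), with the match to CCAAT, here on the reverse strand as ATTGG, in capitals.
Col4a1 start: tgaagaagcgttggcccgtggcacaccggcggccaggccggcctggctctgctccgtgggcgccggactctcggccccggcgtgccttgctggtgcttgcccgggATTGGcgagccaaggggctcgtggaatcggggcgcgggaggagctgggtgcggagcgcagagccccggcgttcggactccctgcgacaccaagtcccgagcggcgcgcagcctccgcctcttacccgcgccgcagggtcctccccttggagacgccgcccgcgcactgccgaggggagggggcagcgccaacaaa
CCAAT on either strand was found in 12 of the 34 collagen starts in the RefSeq table, 3 of them among the 5 type IV genes, and in 37.9% of all 27025 starts. GGGCGG on either strand was found in 22 of the 34 collagen starts and in 35.9% of all starts. TATAAA was found in 5 of the 34, beside 14.2% of all starts. A match is a description of the letters only.

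The minor type IV chains, known from kidney, lung and muscle, were low. Col4a3 had 91 and 104 counts and Col4a4 123 and 157, with ratios of 1.13 (interval 0.842 to 1.51) and 1.26 (interval 0.987 to 1.61), and these genes also share their start region on chromosome 1. Col4a5 had 301 and 276 counts, a ratio of 0.904 with an interval of 0.765 to 1.07, and Col4a6, its neighbour on the X chromosome, 46 and 41 counts. All 5 chains over 100 counts were below genes of like length, beside 50.0% of all genes, with a median of -0.28 in log2. Of these, Col4a4 was at -0.02, almost on the median of genes of like length. In counts, all fibrillar against all type IV chains shifted by 0.13 in log2 in favour of the fibrillar chains, with an interval of 0.09 to 0.18. Types I and III alone shifted against Col4a1 and Col4a2 by -0.06, with an interval of -0.11 to -0.02, so the sign of this comparison depended on which fibrillar chains were counted.

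The multiplexins, which sit at the border of basement membranes and connective tissue, had higher counts with erythrodiol. Col18a1 (chromosome 10) had 99301 counts in the control group and 125601 under erythrodiol, a ratio of 1.247 with an interval of 1.24 to 1.26, which was 0.04 in log2 above genes of like length. Col15a1 (chromosome 4) had 1188 and 1637 counts, a ratio of 1.36 with an interval of 1.26 to 1.46, and lay 0.16 above them. Because Col18a1 held 81.3% of the control counts of the chains that are neither fibrillar nor type IV, the ratio of their sum, 1.22, was 1.08 without it.

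Type VI collagen forms beaded filaments around cells and fibrils, from Col6a1, Col6a2 and Col6a3. Col6a1 had 2299 and 2676 counts, Col6a2 1439 and 1638, and Col6a3 2955 and 3226, with ratios of 1.15, 1.12 and 1.08 in this order and intervals of 1.08 to 1.21, 1.04 to 1.21 and 1.02 to 1.13. All of them were below genes of like length, by -0.04, -0.07 and -0.24, so the side on which they stood depended on the scaling. Per length, Col6a1 stood to Col6a2 as 1.55 to 1 and 1.58 to 1. Col6a5 and Col6a6, which are neighbours on chromosome 9 and can stand in for Col6a3, had 80 and 119 counts and 119 and 173 counts, with ratios of 1.46 and 1.44. Their erythrodiol values are not whole and add up to 292, and their control values to 199, so reads were shared between them and the split is uncertain.

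The chains that bind to fibrils gave both small and larger differences. Col14a1 had 12503 and 12896 counts, a ratio of 1.02 with an interval of 0.992 to 1.04, and lay -0.27 in log2 below genes of like length. Col12a1, its relative, had 460 and 522 counts, a ratio of 1.12 with an interval of 0.985 to 1.27, and Col16a1 653 and 674. Col20a1 was nearest to the 1.5-fold limit of all 29 chains, with 373 and 563 counts and a ratio of 1.49, with an interval of 1.30 to 1.70. It lay 0.27 above genes of like length, the highest of the chains over 100 counts.

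Of the membrane-spanning chains, Col13a1, which is known from cell adhesion sites and the neuromuscular junction, had 353 and 466 counts, a ratio of 1.30 with an interval of 1.13 to 1.498, and Col23a1 had 64 and 63. Col8a1, a short chain of vessel walls and the eye, had 107 and 148 counts, a ratio of 1.36 with an interval of 1.06 to 1.76, while Col8a2 had 50 in each group.

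Between 10 and 99 counts, Col28a1 had 46 in the control group and 20 under erythrodiol, a ratio of 0.429 with an interval of 0.240 to 0.739, the lowest ratio of any chain over 10 counts. Col9a3 had 42 and 26 counts, a ratio of 0.610 with an interval of 0.359 to 1.02. Col7a1, the chain of the anchoring fibrils of skin, had 38 and 56, Col25a1 39 and 51, and Col26a1 3 and 7.33 counts. For the last 4 of these the interval included 1, while that of Col28a1 did not. These intervals hold counting error only, so they cannot show whether any of these differences would recur between libraries.

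Chains that lie side by side in the genome had like ratios in several cases. Col3a1 and Col5a2, the only chains over 100 counts whose interval lay below 1, are neighbours on chromosome 1. They run from 45311538 to 45349706 and from 45374331 to 45503282, with 24624 bases between them and on opposite strands. Both were lower, but their ratios were not alike, with log2 ratios of -0.12 and -0.33 and counting intervals that did not overlap. The pairs Col4a1 and Col4a2, Col6a1 and Col6a2, and Col6a5 and Col6a6 had log2 ratios of 0.01 and 0.01, 0.20 and 0.17, and 0.54 and 0.52. Reads were shared between Col6a5 and Col6a6, so the ratios of that pair are not separate values. The neighbours Col4a3 and Col4a4 had log2 ratios of 0.17 and 0.33, and Col4a5 and Col4a6 of -0.15 and -0.19. Col6a4, next to Col6a5, had 4 counts in each group. These pairs were looked at after the values were seen and are given as a description.

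New coding transcripts assembled over all libraries were deposited for 10 of the 42 chains, 37 in all. Col27a1 had 12, Col16a1 8 and Col13a1 6, while Col1a1, Col1a2, Col3a1, Col4a1 and Col4a2 had none. By the study's methods they were added to the reference before counting. None of the 16 deposited splicing events lay in a collagen gene. The matching shares over all genes were not computed, so these counts are not read as traits of collagen genes.

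The enzymes and chaperones that modify and fold collagen chains were mixed. Of 18 such genes with at least 100 counts, 12 had a log2 ratio above 0 and 6 below, beside 71.2% of all genes above 0. Relative to genes of like length 6 were above and 12 below, beside 50.0% of all genes below, with a median of -0.05. Only Ppib, the isomerase cyclophilin B of the endoplasmic reticulum, which the study also used as a reference in RT-qPCR, passed 1.5-fold. It was lower, beside 3.13% of all genes, with 31948 counts in the control group and 21599 under erythrodiol, a ratio of 0.666 (interval 0.655 to 0.678). Relative to genes of like length Ppib was at -0.45 in log2, less than 1.5-fold. P4hb, a subunit of the enzyme that hydroxylates prolines, had a ratio of 1.20 with an interval of 1.19 to 1.21. Mia3, which loads the long collagen chains into transport vesicles, had 20104 and 30558 counts, a ratio of 1.498 with an interval of 1.47 to 1.53, just under the limit. Serpinh1, the collagen chaperone HSP47, had 2796 and 2818 counts, a ratio of 0.993.

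Among 11 genes of procollagen processing and cross-linking, 2 were at least 0.32 in log2 higher, beside 24.3% of all genes, and 3 at least as much lower, beside 8.86% of all genes. Furin had 21504 and 29852 counts, a ratio of 1.37, and Bmp1, the procollagen C-proteinase, had a ratio of 1.16. Lox, which cross-links fibrils, had 259 and 197 counts, a ratio of 0.750 with an interval of 0.620 to 0.906. Most of its relatives went the other way, with log2 ratios of 0.14 for Loxl1, 0.10 for Loxl2 and 0.33 for Loxl3. Loxl4 was at -0.06, and the intervals of Loxl2 and Loxl4 included 1. Beside genes of like length, Loxl3 was above at 0.09, while Loxl1, Loxl2, Loxl4 and Lox were at -0.06, -0.17, -0.33 and -0.66. Pcolce2, an enhancer of the procollagen C-proteinase, had 651 and 457 counts, a ratio of 0.692 with an interval of 0.613 to 0.781. The 11 genes listed for collagen breakdown included the inhibitors Timp1, Timp2 and Timp3. Relative to genes of like length 1 of the 11 was above and 10 below, beside 50.0% of all genes below. Only Mmp13 passed 1.5-fold, being lower, beside 3.13% of all genes. It had 124 and 79 counts, a ratio of 0.628 with an interval of 0.467 to 0.839. Mmp12, the macrophage elastase, had 4217 and 3064 counts, a ratio of 0.716, and Mmp19 a ratio of 1.05. The 7 collagen receptors included Itgb1 at 0.843 and Itga1 at 1.245.

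The partners of fibrils and of basement membranes were described in the same way. Of 10 fibril partners 3 were above genes of like length and 7 below, beside 50.0% of all genes below, with a median of -0.19. Fn1, fibronectin, had a ratio of 1.26, and Dcn and Lum, small proteoglycans that coat fibrils, had ratios of 0.890 and 0.773. Of 15 basement membrane partners 3 were above and 12 below, beside the same 50.0%, with a median of -0.24. Nid1, nidogen, had 4761 and 4235 counts, a ratio of 0.877, while Agrn, agrin, had 1.23. Lama3, a laminin chain, had 518 and 790 counts and passed 1.5-fold at a ratio of 1.503, with an interval of 1.34 to 1.68. It was the only one of the 15 to do so, beside 2.54% of all genes at least 1.5-fold higher. Relative to genes of like length Lama3 was at 0.30 in log2, less than 1.5-fold. Of 11 genes of the TGF-beta axis, which drives collagen synthesis, none passed 1.5-fold, beside 2.54% of all genes higher and 3.13% lower. A log2 ratio above 0 was found for 7 and below 0 for 4, beside 71.2% of all genes above 0. Relative to genes of like length 4 were above and 7 below, beside 50.0% of all genes below. Tgfb1 had a ratio of 1.04 and Tgfbr2 of 1.19. At least 0.32 in log2 higher were 2, Smad3 at 1.38 and Smad4 at 1.31, beside 24.3% of all genes, and none was as much lower.

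Among the marker lists, those of Kupffer cells and bile ducts were lower throughout. Those of stellate cells, myofibroblasts, portal fibroblasts, sinusoidal endothelium and hepatocytes had no member past 1.5-fold, beside 2.54% of all genes higher and 3.13% lower. Of 10 stellate cell markers 8 had a log2 ratio above 0 and 2 below, beside 71.2% of all genes above 0. Relative to genes of like length 1 of them was above and 9 below, beside 50.0% of all genes below. The sum of these markers went from 336 to 386 counts per 1000000, with Ecm1 at a ratio of 1.30 and Rgs5 at 1.00. Myofibroblast markers summed to 26.1 and 26.4 counts per 1000000, with Tagln at 0.984 and Tpm2 at 1.09, and portal fibroblast markers to 34.8 and 33.4, with Gas1 at 1.05 and Eln at 0.817. Sinusoidal endothelial markers summed to 235 and 249, with 5 of 8 above 0 in log2 and 3 below, beside the same 71.2%. Relative to genes of like length 1 of them was above and 7 below, beside the same 50.0%. The sinusoidal markers of highest level, Clec4g and Fcgr2b, were at 0.836 and 0.934. Kupffer cell markers summed to 869 and 535, and all 6 were lower. Of these 5 passed 1.5-fold, beside 3.13% of all genes, namely Cd5l, Clec4f, Vsig4, Marco and Adgre1 at ratios of 0.615, 0.639, 0.664, 0.477 and 0.594. All 6 bile duct markers were lower, with a sum of 117 and 79.6, and 2 of them, Spp1 and Krt19, passed 1.5-fold (3.13% of all genes) with ratios of 0.659 and 0.540. Hepatocyte markers had a median log2 ratio of 0.18, with Alb at 0.962 and Apoa1 at 1.10. Outside the striated muscle list no marker was at 0 in a group, and the part of the markers in the collagen values was not tested. Of the striated muscle markers none reached 100 counts, and Ttn had 27 counts in the control group and Ckm 3, while both were at 0 under erythrodiol. The other muscle markers did not follow these, with 3 and 6 counts for Tnnt3, 0 and 1 for Myh1, 3 and 2.99 for Acta1 and 2 in each group for Actn2. Of the pancreas markers Cela1 had 1574 and 1113 counts and Amy2a5 124 and 22.5, past 1.5-fold with a ratio of 0.179, while Ctrb1 had 8 and 42 counts.

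**Figure D5:**
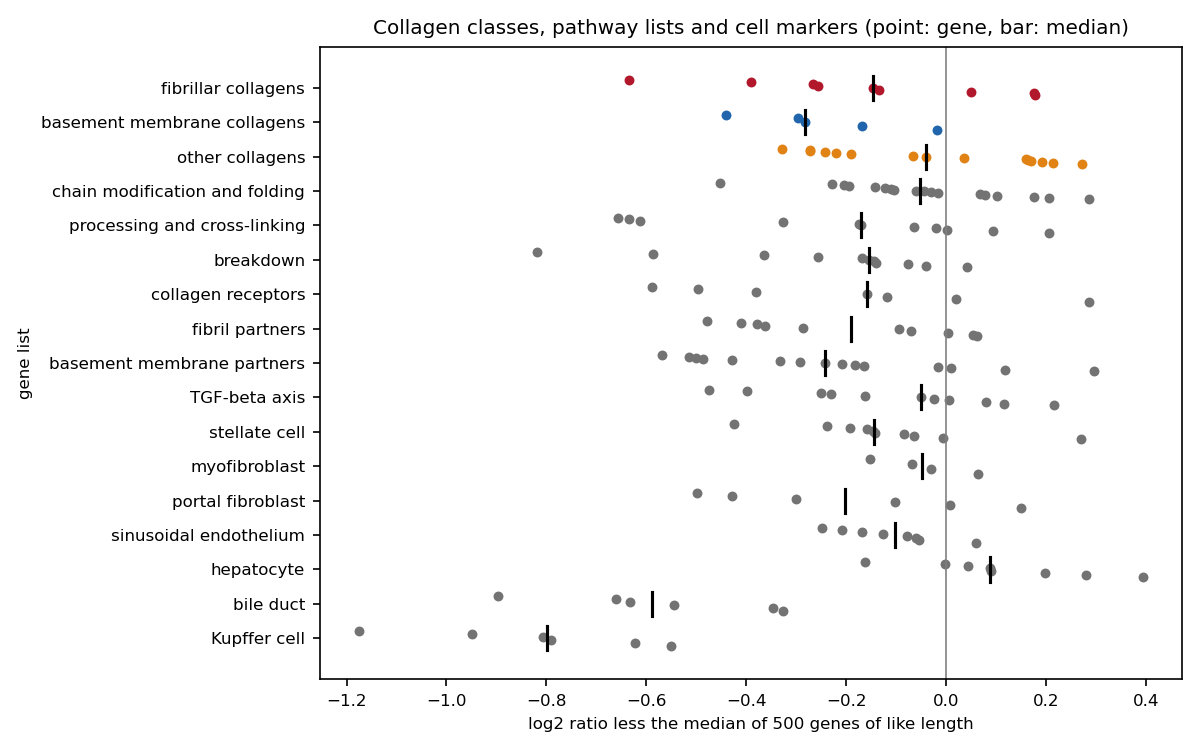
Log2 ratio less the median of 500 genes of like length (x axis) for each gene of at least 100 counts in the collagen classes, the pathway lists and the cell marker lists (y axis); points are genes and bars medians. The medians of the collagen classes lie at -0.15, -0.28 and -0.04, those of bile duct and Kupffer cell markers at -0.59 and -0.80.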

How the data were processed

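Poly-A RNA from liver of 7 control and 7 erythrodiol pools was sequenced by the authors; the labels gave each library its group and number. The authors mapped clean reads with Bowtie2 to reference transcripts merged with new coding transcripts (StringTie, Cufflinks), counted them with RSEM, and deposited an expected count per gene and group, summed over the libraries. Clean reads as counts and mapped shares in percent were deposited by the authors per library. Versions are not given in the sources used here. Columns of the authors' own comparison (log2 ratio, p-value and q-value) were not used.

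Counts were scaled by the group total, and log2 ratios used a pseudocount of 0.5. Ratios printed in the report are without it. Exact (Clopper-Pearson) intervals at 95% used counts rounded to whole numbers, and intervals of shifts between chains used the normal approximation on the log scale. Genes of like length are the 500 other genes nearest in deposited length with at least 100 counts. No test was possible on 1 sum per group. All chains over 10 counts are described, and in the other lists genes past 1.5-fold and the 2 of highest level; further genes named there were chosen after their values were seen. Members, classes and lists were chosen with earlier results of these data known. Listed genes were matched by symbol or older symbol; Myh4 was not analysed here. Coding sequences are the longest of each gene in GENCODE M21, and positions are those of GRCm38, the build of the deposited annotation. The deposited table of 4 example genes, the totals of SNPs and splicing, and the mapping to the genome were not used here. The computation was tested on simulated data. Scripts ran in Python 3.11.15 with scipy 1.17.1, and used pandas 2.3.3, numpy 2.4.6 and, for plots, matplotlib 3.10.9. Alternatives were other scalings, a pseudocount of 1, minimums of 10 and 500 counts or none, and limits of 0.32 in log2 and of 2-fold.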

Additional observations from a re-analysis of the deposited data

Results flagged for a closer look

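The share of clean reads mapped to genes was 64.33% in control replicate 3, far below the 74.39% to 81.43% of the other control libraries, its gap being over the limit for an outlier in a group of 7. Chance flags about 1 in 20 such groups for each measure. The limit was applied in both groups to clean reads, the mapped share, the uniquely mapped share and the genes detected. Only this value was flagged, and a flag by chance is likelier over all of these checks than in a single one. By mapped reads this library made up 9.12% of the control sum, and its collagen counts cannot be told apart from those of the other libraries.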

How the results depend on the processing

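No paired analysis was possible because the gene table gives 1 sum per group, and no library could be left out. The number of chains at least 1.5-fold higher (0) became 1 with a minimum of 10 counts, 4 with none and 10 at a limit of 0.32 in log2, and the number lower (0) became 2, 3 and 1, and 1 relative to genes of like length. Scaling by the median of all genes lowered every log2 ratio by 0.16, by a trimmed mean by 0.16 and by totals without the 20 highest genes by 0.08. The median of all chains (0.17) was then 0.0040 and 0.0095 under the first 2, and -0.15 relative to genes of like length. That of fibrillar chains (0.15) was -0.0077, -0.0022, 0.070 and -0.15 under all 4 in this order, and 0.038 with a minimum of 500 counts. Relative to genes of like length the median of type IV was -0.28 and that of the others -0.040. The ratio of summed fibrillar counts (1.11) was 0.989, 0.993, 1.04 and 0.902 under the 4 scalings and 1.18 without Col3a1, that of type IV (1.01) 0.901, 0.904, 0.951 and 0.817, and that of the others (1.22) 1.09, 1.09, 1.15, 0.999 and, without Col18a1, 1.08. The fibrillar share changed by -1.65 percentage points, by -1.38 with counts not divided by length and by 0.671 without Col18a1. Of the 35 chains over 10 counts, 14 changed sign relative to genes of like length, 9 by the median of all genes, 8 by the trimmed mean and 6 without the 20 highest genes.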
